A study of Mus musculus with 4 samples.

Results

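The V segments of the T cell receptor are the gene pieces that code for most of the variable part of the alpha chain (Trav) and of the beta chain (Trbv). All genes whose names mark them as Trav or Trbv segments were taken, which gave 66 of 13314 genes in the deposited count table, 52 Trav and 14 Trbv. Their usage was followed in CD4 T cells of the mesenteric lymph node (mLN), the node that drains the intestine, in 4 single-cell libraries with 1 library per group. The groups were germ-free Foxp3GFP, colonized Foxp3GFP, germ-free Foxp3CNS1- and colonized Foxp3CNS1- mice. All mice were germ-free males at the start, and those of the colonized groups were given SPF (specific-pathogen-free) fecal microbiota 9 days before the cells were taken. Both strains carry a GFP reporter of Foxp3, the transcription factor of regulatory T (Treg) cells. The Foxp3CNS1- strain also lacks CNS1, an enhancer within an intron of that gene with a known role in Treg cell induction outside the thymus. Each library pooled the nodes of 3 mice and mixed GFP-positive and GFP-negative sorted CD4 T cells in equal parts, with about 5000 cells targeted. A pool gives no spread between mice, and what belongs to the group cannot be told apart from what belongs to its library or batch.

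A functional alpha chain gene is made in the developing T cell by joining a V segment to a J segment, and a beta chain gene by joining V, D and J segments. A mature T cell mostly carries 1 productive beta rearrangement, while the alpha locus often rearranges on both chromosomes and can replace an earlier join with an upstream V and a downstream J segment. Messenger RNA of the finished gene holds the V segment near its 5′ end and the constant region (Trac for alpha, Trbc1 and Trbc2 for beta) at its 3′ end. The labels give 3′ v3 chemistry for these libraries, which reads messages near the 3′ end, but their protocol also names 5′ v2, and the files did not settle which was used. A cell without a V segment UMI may still transcribe the segment. The segments named below as dv can also join in delta chains of gamma delta T cells.

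In the GRCm38 annotation (GENCODE M21) the 52 Trav segments lie on chromosome 14 between 52427928 and 53927595, all on the plus strand. The 14 Trbv segments lie on chromosome 6 between 40891229 and 41558452, 13 of them on the plus strand and Trbv31 on the minus strand, downstream of the constant regions. The annotation calls 2 members, Trav8-2 and Trav22, pseudogenes. For 40 of the 52 Trav segments another annotated segment was at least 95% identical over the V exon, because the mouse alpha locus holds duplicated blocks whose segments carry d or n in their names. Counts of such copies can be split or lost in counting, so values of single Trav segments are uncertain in that respect. No Trbv segment had a copy that close.

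Selected segments are shown by the last 60 bases of their V exons, and they are not a full set of the most frequent ones. Trbv31 is shown, while the more frequent Trbv13-2 and Trbv20 are not. The codon of the conserved cysteine that opens the most variable antigen-binding loop (CDR3) is in capitals. Bases after the codon are the start of that loop before joining. The sequences are from GENCODE M21 transcripts on GRCm38, 5′ to 3′ on the coding strand. The exon ends lie at the following positions, on the plus strand except Trbv31: Trbv12-2 (chr6:41119305-41119364), Trbv3 (chr6:41048769-41048828), Trbv2 (chr6:41047936-41047995), Trbv31 (chr6:41557691-41557750), Trav6-7-dv9 (chr14:53710360-53710419) and Trav3-3 (chr14:53666447-53666506).
Trbv12-2: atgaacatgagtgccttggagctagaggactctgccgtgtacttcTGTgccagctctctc
Trbv3: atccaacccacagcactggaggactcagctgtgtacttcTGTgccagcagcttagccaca
Trbv2: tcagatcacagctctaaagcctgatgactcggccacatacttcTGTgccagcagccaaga
Trbv31: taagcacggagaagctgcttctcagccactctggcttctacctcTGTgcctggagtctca
Trav6-7-dv9: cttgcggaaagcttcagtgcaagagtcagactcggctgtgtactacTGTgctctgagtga
Trav3-3: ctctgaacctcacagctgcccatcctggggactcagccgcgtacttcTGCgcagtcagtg

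The 5 measured members of the Trav14 family are shown over the last 240 bases of their V exons, because 1 of them is the segment that passed the test by Foxp3 status described below. Capitals mark bases unlike Trav14d-3-dv8. Trav14n-3 and Trav14-3 each differed from it at 8 of the 240 positions, Trav14-2 at 15 and Trav14-1 at 18. They lie on the plus strand at chr14:53078806-53079045 (Trav14d-3-dv8), chr14:53370336-53370575 (Trav14n-3), chr14:53763455-53763694 (Trav14-3), chr14:53640986-53641225 (Trav14-2) and chr14:53554319-53554558 (Trav14-1).
Trav14d-3-dv8: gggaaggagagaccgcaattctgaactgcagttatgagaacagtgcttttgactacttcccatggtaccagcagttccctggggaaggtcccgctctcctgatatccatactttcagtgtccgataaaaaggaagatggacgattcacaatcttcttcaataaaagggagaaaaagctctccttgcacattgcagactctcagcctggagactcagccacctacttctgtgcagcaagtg
Trav14n-3: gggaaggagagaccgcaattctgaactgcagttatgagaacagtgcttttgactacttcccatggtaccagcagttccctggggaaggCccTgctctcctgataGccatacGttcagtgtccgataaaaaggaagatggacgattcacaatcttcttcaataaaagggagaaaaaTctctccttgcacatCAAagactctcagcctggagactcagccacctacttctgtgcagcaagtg
Trav14-3: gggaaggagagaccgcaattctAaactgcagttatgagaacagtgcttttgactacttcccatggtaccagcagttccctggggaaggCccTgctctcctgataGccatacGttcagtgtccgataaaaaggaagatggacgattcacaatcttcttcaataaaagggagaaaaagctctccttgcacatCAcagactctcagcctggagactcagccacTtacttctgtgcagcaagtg
Trav14-2: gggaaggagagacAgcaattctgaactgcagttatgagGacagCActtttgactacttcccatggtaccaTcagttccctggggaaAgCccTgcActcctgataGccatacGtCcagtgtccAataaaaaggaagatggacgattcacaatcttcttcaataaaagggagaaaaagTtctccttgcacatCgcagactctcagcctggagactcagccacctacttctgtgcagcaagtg
Trav14-1: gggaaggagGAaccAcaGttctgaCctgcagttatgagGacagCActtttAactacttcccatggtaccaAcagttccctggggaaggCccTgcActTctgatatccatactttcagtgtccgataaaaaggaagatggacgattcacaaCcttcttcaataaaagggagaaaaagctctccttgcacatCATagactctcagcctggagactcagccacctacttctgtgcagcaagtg

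The libraries held 3533 to 5406 analysed cells with median totals of 2286 to 2832 unique molecular identifiers (UMIs) per cell, 16948 cells in all. Of 16791 barcodes, 157 occurred in more than 1 library. Of the genes that define CD4 T cells, Trac had a UMI in 86.2% of cells and Trbc1 or Trbc2 in 99.5%, while Cd4 itself had one in 32%. UMIs of 7 B cell markers were present in 64.1% of cells at 709 to 1430 CPM per library (CPM, UMIs of a gene per 1000000 UMIs of the cells named). No cluster of analysed cells lacked Trac, the lowest having 880 CPM. Among analysed cells, the share that free RNA alone would give could therefore not be measured in a cell type without the receptor. Shares and ratios below carry exact 95% intervals that cover counting error only.

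V segments gave 3240 UMIs, 2592 Trav and 648 Trbv, which is 62.9 CPM. A Trav UMI was found in 1784 cells, or 10.5%, and a Trbv UMI in 621 cells, or 3.66%. There were 4.64 Trav UMIs per 100 Trac UMIs and 0.2997 Trbv UMIs per 100 Trbc UMIs. All 14 Trbv segments and 46 of 52 Trav segments were seen in every library. Segments ranged from 11 to 221 UMIs in the alpha locus, with a median of 37, and from 15 to 218 in the beta locus, with a median of 23. Fewer than 20 UMIs were found for 13 Trav and 5 Trbv segments. The 66 segments are not all those of the 2 loci. Shares of a locus, ranks, family shares and measures of unevenness are over the listed segments only, and other segments, among them Trav11 of invariant natural killer T cell receptors, were not analysed here.

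By UMIs, usage was uneven in the beta locus and spread in the alpha locus. How far detection differs between segments was not measured. Shares of UMIs therefore need not be the shares of cells that use a segment. Trbv12-2 took 218 of 648 Trbv UMIs, 33.6% (30.01 to 37.4). In the order germ-free Foxp3GFP, colonized Foxp3GFP, germ-free Foxp3CNS1-, colonized Foxp3CNS1-, used for all library values below, it had 42, 68, 45 and 63 UMIs. It led the Trbv segments in all 4 libraries. Trbv3 followed with 13.6% (11.04 to 16.5) from 22, 18, 16 and 32 UMIs, and Trbv2 with 12.8% (10.3 to 15.6) from 27, 28, 10 and 18 UMIs. The intervals of Trbv3 and Trbv2 overlap, and neither reaches that of Trbv12-2. These 3 segments together held 60.03% of Trbv UMIs. Trbv13-2 and Trbv20 had 42 UMIs each (6.48%), and the other named segments, Trbv31, Trbv1, Trbv19, Trbv16 and Trbv12-1, had 19 to 24. The intervals of those 5 overlap one another. Trbv31, which lies beyond the constant regions and joins by inversion, had 4, 7, 5 and 8 UMIs.

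In the alpha locus Trav14d-3-dv8 led with 221 of 2592 UMIs, 8.53% (7.48 to 9.67), from 67, 49, 34 and 71 UMIs. Trav6-7-dv9 had 176 UMIs, 6.79% (5.85 to 7.83), from 46, 33, 42 and 55. Trav14-2 had 133 (31, 26, 29 and 47), Trav3-3 had 128 (19, 34, 28 and 47) and Trav7-4 had 101 UMIs (25, 35, 25 and 16). Each of these segments had an interval that overlaps that of the next in order. Trav14-3, Trav13-1, Trav4-4-dv10, Trav14n-3 and Trav16n had 81 to 94 UMIs. The 10 leading Trav segments held 46.0% of Trav UMIs. The inverse of the sum of squared shares, which counts the segments that would give the same unevenness if used equally, was 30.3 for Trav and 6.07 for Trbv. Trav1, at the upstream end of the locus, had 24 UMIs in 13 cells, 7, 0, 9 and 8 by library. By family, the 5 Trav14 segments held 23.2% of Trav UMIs, the 9 Trav7 segments 12.4% and the 4 Trav6 segments 9.95%.

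**Figure D1:**
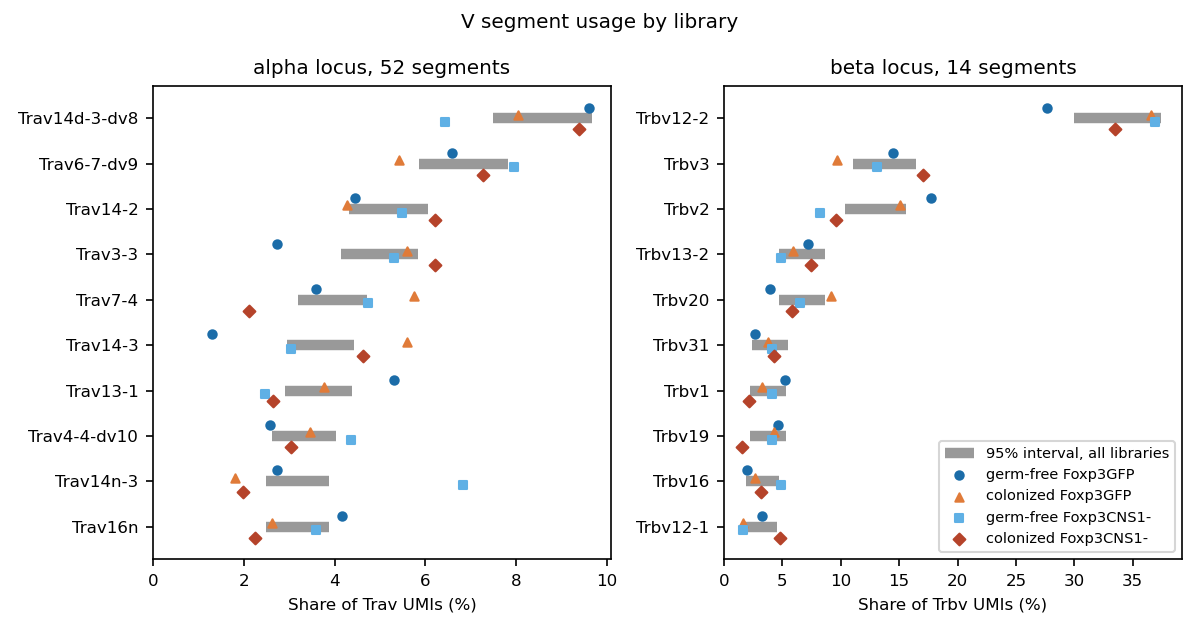
Share of the UMIs of the locus (x axis, percent) for the 10 leading Trav and Trbv segments (y axis), by library (points) with the exact 95% interval over all libraries (grey bars, counting error only). Trbv12-2 is the leading Trbv segment in each of the 4 libraries, with 33.6% over all, and no Trav segment exceeds 9.60% in any library.

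Position along the alpha locus went with the UMI counts of the listed segments. The 17 segments nearest to the J segments (Trav12-2 to Trav22) held 43.0% of Trav UMIs, with a median of 55 UMIs, the 17 in the middle 34.8% and the 18 farthest upstream (Trav1 to Trav13n-3) 22.2%, with a median of 18.5. Spearman's rho between UMIs and position was 0.477 over the 52 segments, which share libraries and lie in duplicated blocks. The share of the nearest part was 36.5%, 43.4%, 43.0% and 48.6% by library. For the 14 Trbv segments rho was -0.291. The 8 segments with d in their number held 13.2% and the 10 with n held 14.4% of Trav UMIs. Their medians were 18 and 30.5 UMIs, beside 44.5 for the 34 other Trav segments. All d and n segments lie upstream of the nearest part. The part of split or lost counts of copies in the relation with position was not tested. Segment UMIs correlated between libraries with Pearson coefficients of 0.735 to 0.835 over the 52 Trav and 0.893 to 0.971 over the 14 Trbv segments. These are descriptions across segments, which share depth and gene structure and are not replicates.

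UMIs of a Trav segment came in groups within cells. A cell with a given Trav segment held a median of 1.37 UMIs of it over the 52 segments, up to 2 for Trav13-4-dv7, and the highest count in 1 cell was 8. For Trbv segments the median was 1. Among 477 cells with at least 2 Trav UMIs, 1193 of 1418 pairs of UMIs in the same cell named the same segment, 84.1% (82.1 to 86.0). Pairs drawn by the segments' overall shares would agree in 3.31%. By library the value was 90.0%, 77.2%, 85.1% and 84.1%. Pairs within a cell are not independent, so these intervals are too narrow. In cells with a Foxp3 UMI it was 73.1% (66.4 to 79.1) and in the others 85.9% (83.9 to 87.9). In 382 of the 477 cells all Trav UMIs were from 1 segment, in 91 from 2 segments and in 4 from 3 or more.

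The 95 cells with more than 1 Trav segment did not repeat 1 combination. They held 106 pairs of segments of 87 kinds, the most frequent being Trav3-3 with Trav9-4 in 5 cells and Trav14d-3-dv8 with Trav5-4 in 4. In 7 of the 106 both segments were of the same family. Segments differed in this respect. In cells with Trav14-2 91.3% of the other Trav UMIs were also Trav14-2, and for Trav6-7-dv9 the value was 86.8%, for Trav14d-3-dv8 75.3% and for Trav3-3 61.3%. The pseudogene Trav22 had 25 UMIs in 24 cells, and 22.2% of the other Trav UMIs in those cells were Trav22, while the pseudogene Trav8-2 had 16 UMIs in 9 cells with 94.7%. Trav22 was picked out after its value was seen.

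Trbv UMIs rarely met in a cell. Only 26 cells had at least 2, and 14 of their 28 pairs named the same segment, 50.0% (30.6 to 69.4), beside 16.5% by overall shares. A Trav and a Trbv UMI were found together in 92 cells, 0.543%, where the product of the single shares is 0.386%. These cells held 83 kinds of Trav and Trbv combination, of which 69 occurred in 1 cell and none in more than 3.

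**Figure D2:**
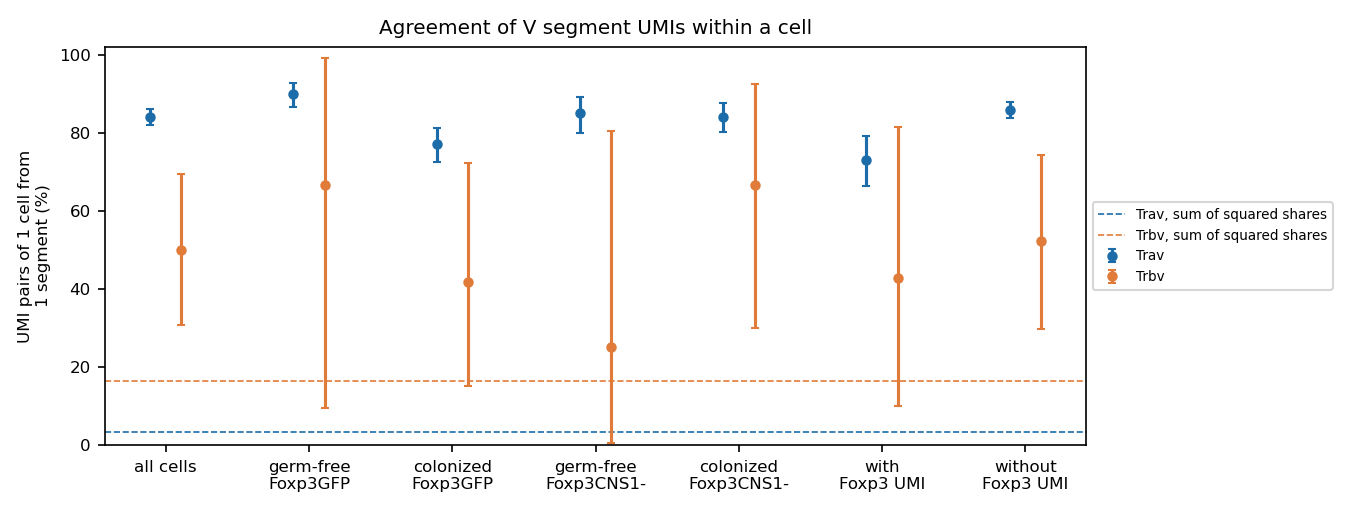
Percent of pairs of UMIs in the same cell that name the same segment (y axis) for Trav and Trbv over all cells, each library and cells with or without a Foxp3 UMI (x axis), with exact 95% intervals; dashed lines are the sums of squared overall shares. Trav values lie between 73.1% and 90.0%, far above 3.31%, and the Trbv intervals are wide because 26 cells entered.

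Trav UMIs per Trac UMI ranged over the authors' 10 clusters from 2.78 to 6.70 per 100. Clusters 1 and 2, which had the lowest sums of 5 Treg cell markers (Foxp3, Il2ra, Ctla4, Ikzf2 and Tnfrsf18) with 192 and 322 CPM, had 6.68 and 6.70 Trav UMIs per 100 Trac UMIs. Clusters 0, 3 and 6, which had the highest sums of these markers with 1343, 2593 and 1321 CPM, had 4.02, 3.62 and 3.38. Clusters 4, 5 and 7 had 5.11, 4.08 and 4.23, and cluster 8, whose cells were deepest with a median of 6716 UMIs, had 3.10. Cluster 9 had 2.78 from 14 Trav UMIs.

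Within each library, Trav UMIs per Trac UMI were lower in clusters 0, 3 and 6 than in clusters 1 and 2. The log2 differences were -0.86, -0.47, -0.87 and -0.91, a mean of -0.78 ± 0.21 (SD, n = 4 libraries). Among cells without a Foxp3 UMI they were -0.89, -0.52, -0.70 and -0.90. For Trbv UMIs per Trbc UMI the differences were 0.22, -0.02, -0.04 and -0.22, with a mean of -0.02 ± 0.18. Trac itself was at a higher level in clusters 0, 3 and 6, by 0.14, 0.11, 0.27 and 0.24 in log2 CPM. After each cell was thinned to 1500 UMIs, a Trav UMI was found in 7.31% (6.36 to 8.35) of cluster 1 and 8.63% (7.56 to 9.80) of cluster 2 cells, and in 5.36% (4.58 to 6.24), 5.80% (4.68 to 7.10) and 3.77% (2.85 to 4.88) of cells of clusters 0, 3 and 6. Unthinned, these shares were 11.9%, 13.0%, 9.15%, 8.23% and 6.76%. The clusters were made from these cells' expression, so the differences are described and not tested. B cell markers summed to 4672 CPM in cluster 3 and 306 to 1099 CPM in the other clusters, and their part in the values was not tested. The sum of 3 naive T cell markers (Ccr7, Lef1 and Dapl1) was 1259 and 1193 CPM in clusters 1 and 2, and 391, 205 and 373 CPM in clusters 0, 3 and 6. The part of these markers was not tested either, and the 3 genes were chosen after values were seen.

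**Figure D3:**
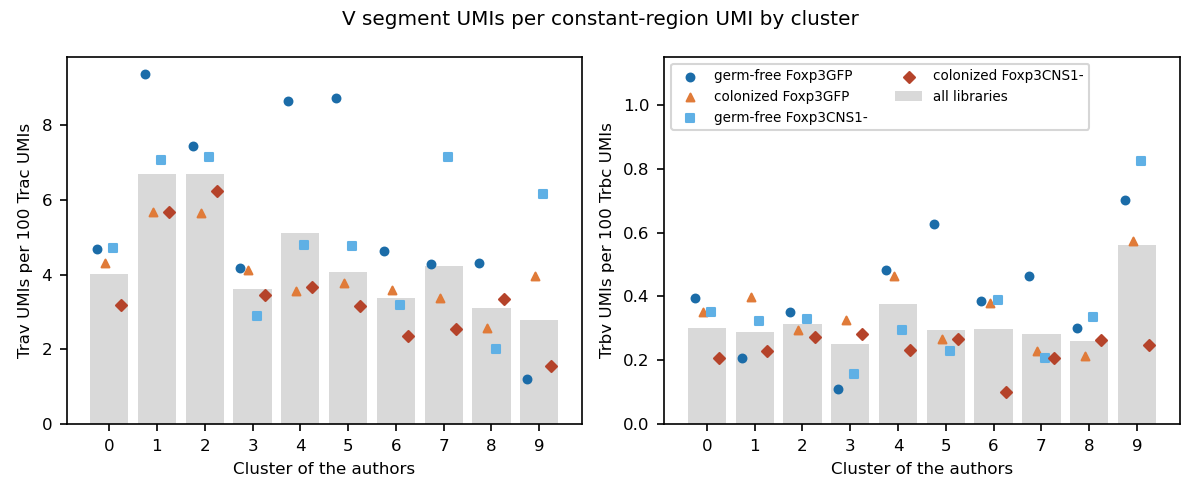
Trav UMIs per 100 Trac UMIs (left) and Trbv UMIs per 100 Trbc1 and Trbc2 UMIs (right) in the authors' 10 clusters (x axis); bars are all libraries together and points the single libraries. Trav is highest in clusters 1 and 2, at 6.68 and 6.70, while Trbv lies between 0.251 and 0.376 in clusters 0 to 8 and rests on 8 UMIs in cluster 9.

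Cells with a Foxp3 UMI were compared with the other cells of the same library. A Foxp3 UMI was found in 3118 cells, 18.4%, with a median of 2721 UMIs against 2552 in cells without; GFP-positive and GFP-negative cells were mixed in equal parts, so a cell without a Foxp3 UMI need not be GFP-negative. Trav level was lower in cells with a Foxp3 UMI in all 4 libraries, at 43.3, 39.3, 40.7 and 33.4 CPM with and 69.8, 47.2, 59.9 and 44.5 CPM without. The mean log2 difference was -0.48 ± 0.18 (SD, n = 4 libraries). The exact two-sided sign-flip permutation p was 0.13, the smallest that 4 libraries allow, and 0.15 adjusted over 6 sums. Fewer cells with a Trav message and less message per cell cannot be told apart in such sums. A Trav UMI was found in 9.30% of cells with and 10.8% of cells without a Foxp3 UMI. In thinned cells these shares were 4.86% and 6.85%. The share with a Foxp3 UMI was lower in all 4 libraries either way, though only 9.95% against 10.04% unthinned in colonized Foxp3GFP. The exact sign-flip p was 0.13 for each, and 0.25 adjusted over 6 comparisons. A lower share can also follow from less message per cell, so the shares do not settle this.

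The alpha constant region was also at a lower level. The sum of Trbc1 and Trbc2 was not, with differences of 0.03, 0.01, -0.01 and -0.003 in log2 CPM, a mean of 0.008. Trac differed by -0.24, -0.22, -0.20 and -0.17 in log2 CPM, and Trav per Trac UMI differed by -0.45, -0.04, -0.35 and -0.24. Within clusters 0, 3 and 6 Trav CPM differed by -0.22, -0.19, -0.84 and -0.17, lower in 4 of 4 libraries. Only in germ-free Foxp3CNS1- did the interval leave out 0 (-1.47 to -0.26). The Trav per Trac differences in these clusters were 0.06, 0.07, -0.56 and 0.04, so no common direction was seen in that ratio. Over all clusters Trbv CPM differed by -0.50, -0.03, -0.09 and -0.23, a mean of -0.21 ± 0.21. Trbv per Trbc UMI differed by -0.53, -0.04, -0.08 and -0.23. Of single segments, 40 of 52 Trav and 9 of 14 Trbv had a lower CPM in cells with a Foxp3 UMI; by share of the locus these counts were 28 and 7. Trav2 and Trav9n-4 had 0 UMIs in cells with a Foxp3 UMI and 19 and 14 in the others. For 0 of 3118 cells an approximate limit, 3 divided by the number of cells, allows a detected UMI in up to 0.0962%. That limit is not an exact interval, and it sets no limit on the cells that use these segments. In B cell markers the cells with a Foxp3 UMI had 1310 and the others 1006 CPM, and in the 3 naive markers they had 322 and 720 CPM. Their part in the differences was not tested.

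The test for single segments used edgeR's quasi-likelihood test on UMI sums per library and status over 10285 genes, of which 7 were V segments with enough counts. Of all genes tested, 18.4% had an adjusted p under 0.05, 10.5% higher and 7.92% lower in cells with a Foxp3 UMI. Of the 7 segments 1 did, a share close to that of all genes. This was Trav14d-3-dv8, with 3.53, 1.90, 2.95 and 0.81 CPM in cells with a Foxp3 UMI and 6.85, 4.18, 3.78 and 4.78 CPM in the others. Its CPM was lower in 4 of 4 libraries, and the values of the 2 groups did not overlap. By share of Trav UMIs it was lower in 3 of 4. In germ-free Foxp3CNS1- that share was 7.25% with and 6.32% without a Foxp3 UMI. The log2 fold change was -1.31 (SE 0.31, edgeR adjusted p = 0.0030). The call was lost when counts were scaled to the V segment UMIs of the locus (log2 -0.79, edgeR adjusted p = 0.108), without the library block (adjusted p = 0.061), with the DESeq2 Wald test (adjusted p = 0.098) and without the colonized Foxp3CNS1- library (log2 -0.94, adjusted p = 0.070).

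Trav6-7-dv9 had a higher CPM in cells with a Foxp3 UMI in 4 of 4 libraries, 5.04, 2.85, 4.72 and 3.80 against 4.11, 2.33, 4.43 and 2.88, with a log2 fold change of 0.23 (SE 0.26, edgeR adjusted p = 0.635). Scaled to the locus its log2 fold change was 0.76 (edgeR adjusted p = 0.049). Trbv12-2 was at 3.02, 4.76, 4.13 and 1.90 CPM with and 4.11, 5.15, 4.96 and 3.93 CPM without, a log2 fold change of -0.49 (SE 0.26, edgeR adjusted p = 0.225). Trav14-2, Trav3-3, Trav4-4-dv10 and Trav7-4 had log2 fold changes of -0.39, -0.05, 0.13 and -0.40, none with an adjusted p under 0.05 in edgeR. Trbv31 had 8 UMIs in cells with and 16 in cells without a Foxp3 UMI, a log2 CPM ratio of 0.96 (-0.47 to 2.27).

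**Figure D4:**
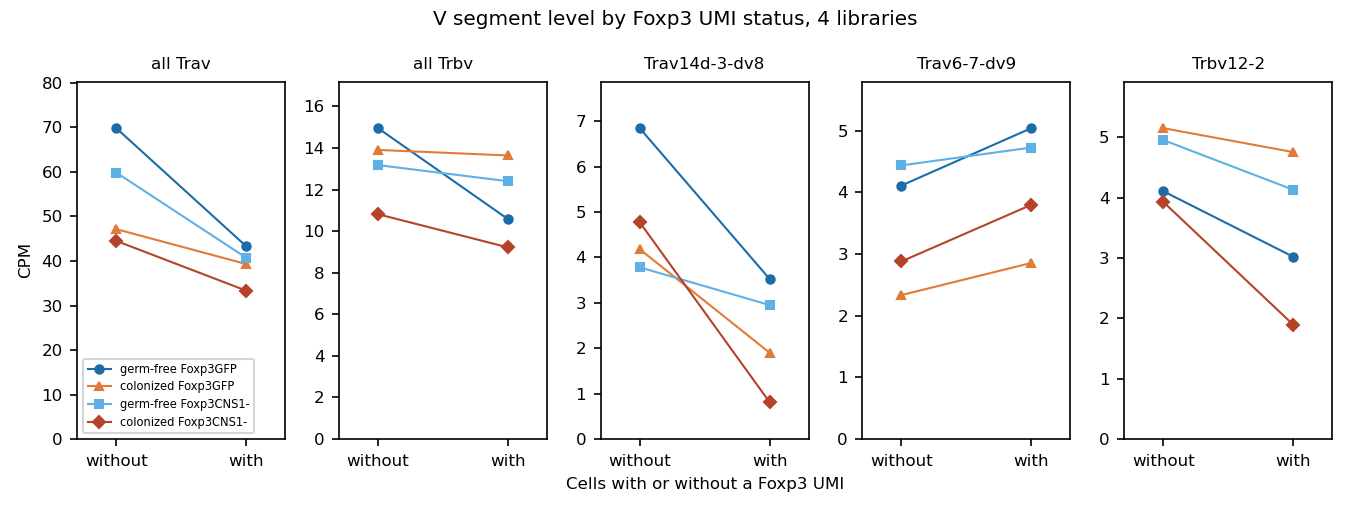
Level in CPM (y axis) of all Trav, all Trbv and 3 single segments in cells without and with a Foxp3 UMI (x axis), 1 line per library. Trav14d-3-dv8 is lower with a Foxp3 UMI in all 4 libraries (log2 -1.31), while Trav6-7-dv9 is higher in all 4 (log2 0.23, edgeR adjusted p = 0.635; scaled to the locus 0.76, adjusted p = 0.049).

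The near-identical copies of Trav14d-3-dv8 shown above had lower totals in cells with a Foxp3 UMI, and they were put together after their values were seen, so no test of the sum is given. Trav14n-3 had 4 UMIs in cells with and 77 in cells without a Foxp3 UMI, and Trav14-3 had 7 and 87. Trav14n-3 was lower in 4 of 4 libraries and Trav14-3 in 3 of 4, with 1.51 CPM with and 0.68 CPM without a Foxp3 UMI in germ-free Foxp3GFP. With no filter on low counts edgeR gave Trav14n-3 a log2 fold change of -2.25 (adjusted p = 0.0040) and Trav14-3 one of -1.74 (adjusted p = 0.0092). Scaled to the locus these were -1.68 (edgeR adjusted p = 0.069) and -1.28 (adjusted p = 0.106), and with cells in place of UMIs -1.92 (adjusted p = 0.069) and -1.22 (adjusted p = 0.182). Together the 3 copies had 5.04, 2.54, 5.90 and 1.08 CPM with and 9.70, 8.36, 9.91 and 8.22 CPM without a Foxp3 UMI, so the groups did not overlap. Their log2 CPM ratio over all libraries was -1.55 (-2.12 to -1.02). Trav14d-3-dv8, already called, gave 21 of their 32 UMIs with and 200 of their 364 without a Foxp3 UMI. The share of the 3 copies among Trav UMIs was 7.96% with and 16.6% without a Foxp3 UMI, lower in 4 of 4 libraries. As the copies were chosen by their values, the interval, the lack of overlap and the common direction do not test the sum. Trav14-1 and Trav14-2 differ from Trav14d-3-dv8 at more positions. Summed, they had 3.71 CPM with and 4.08 CPM without a Foxp3 UMI, a log2 ratio of -0.14 (-0.68 to 0.37). Singly the log2 ratios had opposite signs, 0.24 (-0.64 to 1.05) for Trav14-1 and -0.37 (-1.11 to 0.30) for Trav14-2.

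Other genes of the receptor and its signalling were read from a list of 22 genes, of which 20 were in the table and 19 were tested. In cells with a Foxp3 UMI 3 of the 19 were higher and 9 lower in edgeR, beside 10.5% higher and 7.92% lower of all genes tested, with a median log2 fold change of -0.08 against 0.00 over all genes. Trac, the alpha constant region, had a log2 fold change of -0.26 (SE 0.03, edgeR adjusted p = 1.05e-07) and Trbc1 one of -0.08 (adjusted p = 0.040), while Trbc2 had -0.03 (adjusted p = 0.459). Cd4, the co-receptor, fell by 0.45 on the log2 scale and Themis, a regulator of receptor signalling in thymocytes, by 1.69. Cd28, the costimulatory receptor, fell by 0.39, and the signalling genes Lck, Lat and Zap70 fell by 0.20, 0.19 and 0.19. Dntt, the enzyme that adds bases at the joins, had 0.95 CPM with and 2.42 CPM without a Foxp3 UMI (log2 -1.41, edgeR adjusted p = 0.024). Cd2 rose by 0.45 and Cd3e by 0.13 on the log2 scale, and Cd8a, with a UMI in 0.460% of cells, by 2.15.

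Usage by cluster was read as the share of the locus in a cluster against all other cells, for segments with at least 20 UMIs there. For each cluster up to 2 segments with the highest ratio of these shares are given. Higher shares therefore follow from the choice, and the intervals and counts of libraries do not test them. Cluster 1 had 74 Trav14d-3-dv8 UMIs in 60 cells, 15.4% (12.3 to 18.9) of its Trav UMIs against 6.97% elsewhere, higher in 4 of 4 libraries. It also had 20 Trav5-4 UMIs, 4.15% against 1.28%, higher in 3 of 4. Cluster 8 had 27 Trav6-7-dv9 UMIs in 17 cells, 16.2% (10.9 to 22.6) against 6.14%, higher in 4 of 4. Cluster 0 had 5.67% Trav14n-3 (2.68% elsewhere, higher in 3 of 4 libraries, with 0 UMIs in germ-free Foxp3GFP) and 5.67% Trav4-4-dv10 (2.86%, higher in 4 of 4). Cluster 3 had 9.57% Trav3-3 against 4.49%, in 4 of 4, and cluster 5 had 9.46% Trav14-2 against 4.57%, in 3 of 4. The 22 Trav14n-3 UMIs of cluster 0 came from 11 cells and the 28 Trav14-2 UMIs of cluster 5 from 16.

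For the other pairs chosen by this ratio the interval of the log2 share ratio included 0. They were Trav14-3 (log2 0.71) and Trav4-4-dv10 (0.58) in cluster 2, Trav6-7-dv9 in clusters 3 (0.40) and 4 (0.29), Trav3-3 in cluster 4 (0.75) and Trbv12-2 in clusters 5 (0.29), 6 (0.19) and 8 (0.38). Clusters 7 and 9 had no segment with 20 UMIs. The 3 Trav14 copies together took 21.8% (18.2 to 25.7) of Trav UMIs in cluster 1, 17.9% (14.6 to 21.6) in cluster 2, 14.7% (11.3 to 18.6) in cluster 0, 9.57% (6.09 to 14.1) in cluster 3 and 17.5% (11.6 to 24.7) in cluster 6. These copies were put together by their values by Foxp3 status. A Foxp3 UMI was found in 26.6%, 38.1% and 28.0% of cells of clusters 0, 3 and 6. In clusters 1 and 2 the values were 4.14% and 7.02%. A lower share in clusters 0, 3 and 6 can therefore follow from the choice, and the intervals do not test it. The copies' share was 13.7% (11.3 to 16.3) in clusters 0, 3 and 6 and 19.8% (17.4 to 22.5) in clusters 1 and 2. By library it was 8.05%, 12.6%, 19.5% and 14% in clusters 0, 3 and 6 and 18.4%, 20.1%, 18.9% and 22.2% in clusters 1 and 2, so in germ-free Foxp3CNS1- it was not lower.

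Colonized libraries had less Trav message than germ-free ones in both strains. Trav was at 65.0 CPM in germ-free and 45.3 CPM in colonized Foxp3GFP, a log2 ratio of -0.52 (-0.68 to -0.36). In Foxp3CNS1- it was at 56.4 and 42.2 CPM, a log2 ratio of -0.42 (-0.58 to -0.25). Per Trac UMI the ratios were -0.63 (-0.79 to -0.47) and -0.44 (-0.60 to -0.28). Colonized against germ-free, Trav CPM was lower in 9 of 10 clusters in Foxp3GFP and in 8 of 10 in Foxp3CNS1-, with the interval below 0 in 4 and 2 clusters. In clusters 0, 3 and 6 the ratios were -0.10 (-0.41 to 0.22) and -0.36 (-0.65 to -0.07), and in clusters 1 and 2 they were -0.45 (-0.71 to -0.20) and -0.28 (-0.56 to -0.01). Trbv ratios were -0.03 (-0.35 to 0.29) in Foxp3GFP and -0.31 (-0.65 to 0.03) in Foxp3CNS1-.

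Depth and B cell markers moved with colonization as well. Median UMIs per cell were 2399 and 2286 in the germ-free and 2832 and 2764 in the colonized libraries. With every cell thinned to 1500 UMIs a Trav UMI was found in 7.94% (7.07 to 8.88) and 7.0% (6.13 to 7.95) of germ-free cells, and in 5.79% (5.08 to 6.58) and 5.68% (5.06 to 6.34) of colonized cells. Unthinned the shares were 11.96% and 10.6% against 10.02% and 9.82%. Thinning left out 452, 181, 391 and 261 cells. All 7 B cell markers were in the table, and their sum was 709 and 794 CPM in the germ-free and 1430 and 1154 CPM in the colonized libraries. Plasma cell markers summed to 41.1 and 50.9 CPM in the germ-free and 131 and 160 CPM in the colonized libraries. The 3 naive markers summed to 765 and 614 CPM in the germ-free and 644 and 572 CPM in the colonized libraries. The part of these lists in the Trav ratios was not tested. Without cells holding at least 10 immunoglobulin UMIs, a Trav UMI was found in 11.7%, 9.86%, 10.4% and 9.75% of cells. Between strains, Foxp3CNS1- against Foxp3GFP, the Trav log2 ratio was -0.20 (-0.37 to -0.04) without and -0.10 (-0.26 to 0.05) with colonization. The Trbv ratio was -0.12 (-0.47 to 0.24) and -0.40 (-0.70 to -0.10).

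Single segments were compared between libraries where both together gave at least 50 UMIs, and a ratio of at least 1.5-fold was counted. Under colonization in Foxp3GFP 3 of 8 segments passed, all lower, beside 8.63% of all genes with the same minimum (4.65% higher, 3.97% lower) and 23.3% of genes with 50 to 150 UMIs. In Foxp3CNS1- it was 1 of 7, lower, beside 8.5% (4.69% lower) and 24.2%. By strain it was 3 of 7 in germ-free mice, 1 higher and 2 lower, beside 4.15% (2.92% higher, 1.24% lower) and 13.7%. In colonized mice it was 1 of 8, lower, beside 3.04% (1.77% higher, 1.27% lower) and 12.9%. The comparisons share libraries in pairs. As shares of the Trav UMIs none of the 3 lower segments in Foxp3GFP passed, and 2 others did, both higher under colonization, Trav3-3 (log2 1.04, 0.19 to 1.93) and Trav7-4 (0.68, -0.10 to 1.48). With 7 or 8 segments a comparison, each segment weighs heavily in these shares.

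Trav14n-3 had the ratio farthest from 1, with 19, 11, 36 and 15 UMIs. Colonized against germ-free in Foxp3CNS1- its log2 CPM ratio was -2.20 (-3.18 to -1.30), and Foxp3CNS1- against Foxp3GFP in germ-free mice it was 1.12 (0.28 to 2.01). By cells, 13, 10, 19 and 8 cells had it, and the colonization ratio in Foxp3CNS1- was -1.86 (-3.26 to -0.60), while the strain ratio of 0.72 (-0.37 to 1.86) included 0. Trav13-1 had 37, 23, 13 and 20 UMIs, with ratios of -1.01 (-1.83 to -0.22) under colonization in Foxp3GFP and -1.31 (-2.35 to -0.36) by strain in germ-free mice. These UMIs lay in 18 cells of germ-free Foxp3GFP and 8 of germ-free Foxp3CNS1-, and by cells the strain ratio was -0.998 (-2.41 to 0.27), and the colonization ratio of -0.60 (-1.79 to 0.53) included 0 as well. As shares of the locus they were -1.11 (-2.14 to -0.16) by strain and -0.49 (-1.31 to 0.30) under colonization.

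Trav14d-3-dv8 was at 6.23, 3.65, 3.63 and 3.96 CPM, so germ-free Foxp3GFP stood above the other 3 libraries. Its ratios were -0.77 (-1.34 to -0.22) under colonization in Foxp3GFP and -0.78 (-1.42 to -0.16) by strain in germ-free mice. As shares of the locus these were -0.25 (-0.82 to 0.30) and -0.58 (-1.22 to 0.04), so both intervals included 0. Trav6-7-dv9 was at 4.28, 2.46, 4.49 and 3.07 CPM, with -0.80 (-1.49 to -0.13) under colonization in Foxp3GFP and -0.28 (-0.97 to 0.39) as a share of the locus. Trav7-4 had 25, 35, 25 and 16 UMIs and a ratio of -1.55 (-2.50 to -0.65) by strain in colonized mice; by cells (19 against 14) it was -0.86 (-1.97 to 0.21). Trbv12-2 was at 3.91, 5.06, 4.81 and 3.51 CPM, with -0.53 (-1.04 to -0.01) by strain in colonized mice, and its share of Trbv UMIs in these libraries was 36.6% in Foxp3GFP and 33.5% in Foxp3CNS1-. With counts taken as cells, the ratios of Trav14d-3-dv8 and Trav6-7-dv9 included 0 as well. Each value rests on 1 library per group and has no replicate.

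**Figure D5:**
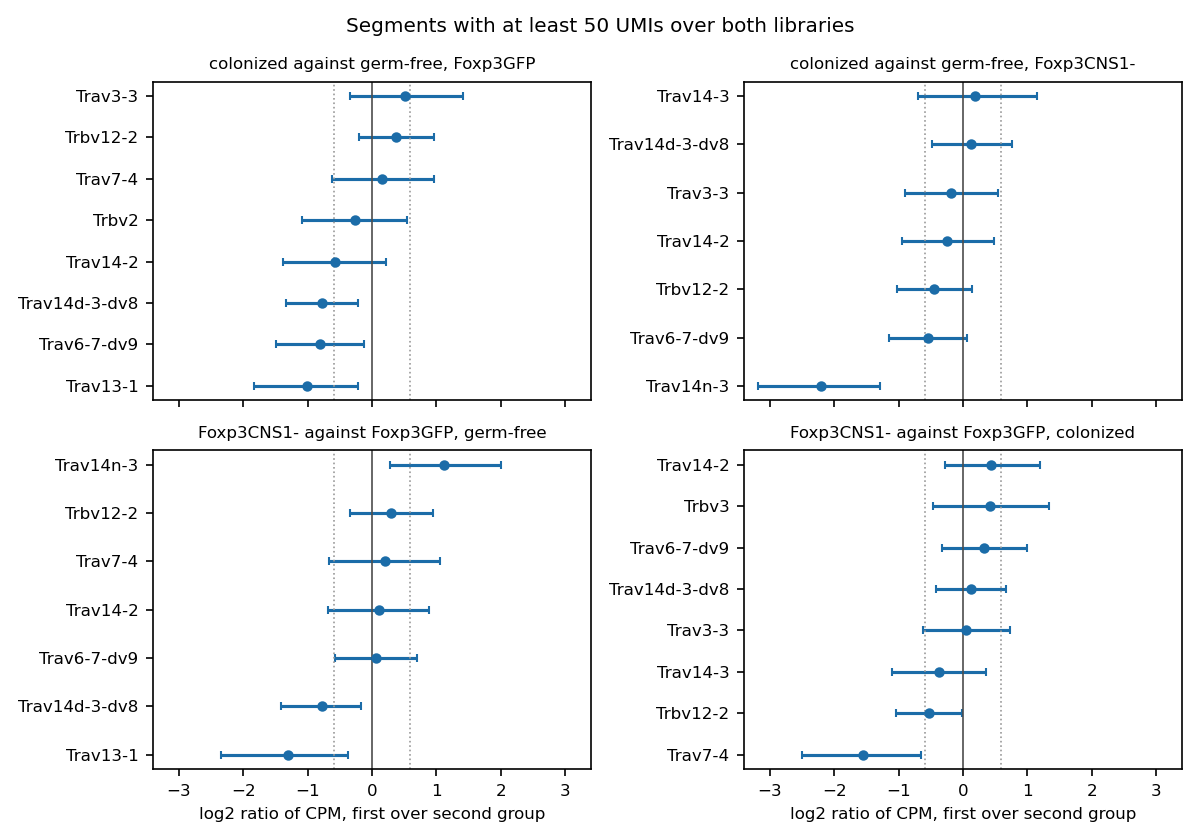
Log2 ratio of CPM between 2 libraries (x axis) for each segment with at least 50 UMIs over both (y axis), in the 4 comparisons, with exact 95% intervals for counting error only; dotted lines mark 1.5-fold. Trav14n-3 under colonization in Foxp3CNS1- lies farthest from 0, at -2.20, and most intervals include 0.

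Gamma delta T cells, which use dv segments in delta chains, were scarce. A UMI of Trdc, the delta constant region, was found in 272 cells, and 12.9% of these had a Trav UMI against 10.5% of the others. The 7 dv segments gave 12 of 42 Trav UMIs in cells with a Trdc UMI, 28.6%, and 23.3% in the other cells. Markers of CD8 T cells summed to 19.9 to 26.0 CPM and those of invariant natural killer T cells to 21.7 to 50.7 CPM per library.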

How the data were processed

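Unique molecular identifier (UMI) counts per cell and gene were used as deposited. Per the submitters' processing notes the authors used mm10, Cell Ranger (no version named) and Scanpy 1.5.1. How cells and genes were filtered is not given in what was read here. The library, cluster number and filter mark of each cell came from a second table deposited by the authors. Of 17478 cells, 227 without a library and 303 marked as removed by the authors were left out, which left 16948. No cell was removed as a doublet.

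The segments, gene lists and comparisons were chosen with earlier results of these data known. Segments named were the 10 with most UMIs per locus, those with adjusted p under 0.05 by Foxp3 status, up to 5 per direction and library comparison with at least 50 UMIs with the ratio whose nearer 95% bound lay farthest from no change, up to 2 per cluster with at least 20 UMIs and the highest share ratio, and Trav11, Trav1 and Trbv31. Lists were the receptor genes and the markers of CD4 T, Treg, naive T, CD8 T, gamma delta T, invariant natural killer T, B, plasma and myeloid cells; myeloid markers had 117 to 173 CPM per library, and gamma delta T cell markers 17.9 to 26.0.

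Counts were scaled to 1000000 UMIs of the cells named (CPM). Foxp3 status was tested with edgeR 4.0.16 (TMM, filterByExpr, library as block, Benjamini-Hochberg over all genes; R 4.3.3) on sums per library and status, without Foxp3. Each status sum of a library is 1 observation, and the 4 libraries are 4 conditions, so the p-values ask for a difference common to them. In simulated counts over 10267 genes, 89.2% of 194 genes changed 2-fold were recovered. The simulation used the same dispersion for all genes, and the changed genes were drawn from all that passed the filter. Recovery of V segments, which had few UMIs, was not measured apart, so the value does not give it. Between libraries there was 1 sample per group and no test. Exact 95% intervals (Clopper-Pearson) cover counting error only, not differences between mice or between cells. Alternatives were DESeq2 1.42.0, other filters, scalings and cell choices, cells thinned to 1500 UMIs, and leaving out each library.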

Additional observations from a re-analysis of the deposited data

Results flagged for a closer look

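Cells with the authors' removal mark, which enter no comparison, held V segment UMIs. Of these 303 cells, 6.60% (4.08 to 10.0) had a Trav UMI and 3.63% (1.83 to 6.40) a Trbv UMI. A count of 0 would allow up to 0.990% by an approximate limit, 3 divided by the number of cells. The removed cells held 32 Trav and 11 Trbv UMIs of 20 segments, and Trbv12-2 was the most frequent with 7 UMIs in 7 cells. Their Trac level was 845 CPM and their median depth 2341 UMIs.

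For 3 segments with at least 50 UMIs in both pairs of libraries the colonized over germ-free ratio had opposite signs in the 2 strains. The log2 ratio in Foxp3CNS1- minus that in Foxp3GFP was 0.90 (0.10 to 1.69, counting error only) for Trav14d-3-dv8, -0.83 (-1.61 to -0.04) for Trbv12-2 and -0.71 (-1.76 to 0.35) for Trav3-3. As a share of the locus the Trav3-3 ratio was positive in both strains, 1.04 in Foxp3GFP and 0.23 in Foxp3CNS1-. With 1 library per group the difference was not tested.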

How the results depend on the processing

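By Foxp3 status 1 V segment was called. The count was 0 with the DESeq2 Wald test, 0 without the library block, 0 in only the clusters 0, 3 and 6 (where 1 segment was tested), 3 with no filter on low counts, 0 with no filter and scaling to the locus (added after seeing the data) and 0 to 2 when each library was left out. It was 0 without colonized Foxp3CNS1-, and 2 without germ-free Foxp3GFP or without colonized Foxp3GFP. Scaled to the locus it was 1, but that segment was Trav6-7-dv9 and not Trav14d-3-dv8. At an unadjusted p under 0.05 the Wald test and the fit without the block each gave 1 segment, and clusters 0, 3 and 6 gave 0. Trav14d-3-dv8 kept its direction in all 14 alternatives that included it, with log2 from -1.51 to -0.79, and had an adjusted p under 0.05 in 9 of them (range 3.2e-04 to 0.108). The share of cells with a V segment UMI was 13.6%, and 8.26% in cells thinned to 1500 UMIs. Between libraries the counts past 1.5-fold, in the order in which the comparisons were given, were 3, 1, 3 and 1. With at least 20 UMIs they were 16, 13, 13 and 11. With at most 1 UMI per cell and segment and without cluster 8 the first was 1 and the third 0. As shares of the locus all 4 counts were 2, and in the first none of the segments past 1.5-fold by CPM was among them: by CPM all 3 were lower and by share both were higher. With at least 200 UMIs no segment was left, so no value could be given. The share of Trav14d-3-dv8 was 8.53% by UMIs and 10.0% by cells. The percent of Trbv UMI pairs from 1 segment stayed within its interval in both alternatives. Causes of these changes were not tested. Depth limits all single segments: 17 Trav and 3 Trbv segments had at least 50 UMIs over all 4 libraries.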
